A study of Mus musculus with 6 samples.

Results

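FK866 was set against no treatment in 4 CUT&Tag libraries, of 6 in the series, made from mouse ILC2s (group 2 innate lymphoid cells) in culture. These 4 were chosen because they are the libraries labelled FK866 alone or Control. The FK866 group held 2 libraries, FK866 1 and FK866 2, and the untreated Control group held 2, Control 1 and Control 2. The remaining 2 libraries received succinate on top of FK866 and were not used here. All libraries came from ILC2s that were taken from the gut (labelled colon), kept in medium holding IL-33, IL-25, IL-7 and IL-2, and sorted by flow cytometry before tagmentation. The strain, sex and age of the mice, the dose and duration of FK866, the number of animals behind a library and the target of the antibody are not given. Nothing says that the replicates came from separate cultures or animals, so p-values measure the spread between these libraries, which may be technical.

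ILC2s are tissue-resident lymphocytes that answer the epithelial alarm signals IL-33, IL-25 and TSLP with the type 2 cytokines IL-5 and IL-13, under the control of the transcription factor GATA3. FK866 inhibits NAMPT, the enzyme that recycles nicotinamide into the precursor of NAD, and so drains the NAD pool that glycolysis, the TCA cycle, sirtuins and PARPs draw on. In CUT&Tag an antibody on the chromatin brings in a transposase that cuts and tags the DNA nearby, so that a peak marks a stretch where the antibody's target lay. The comparison asks which stretches carried a peak with and without FK866.

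The peaks were compared as merged regions, 76819 in all, and as genes, 21883 protein-coding spans each widened by 2 kb on both sides. A region or gene is called lost here when both Control libraries and neither FK866 library had a peak on it, and gained in the opposite case. Nearly all genes that define the cells lay under peaks in every library, as did 65.0% of all protein-coding genes. The following start regions show the contrast the results turn on, from the RefSeq promoter windows of the mouse build GRCm38.p6, the coordinates of mm10. Each runs from 250 bases before to 50 bases after the gene's start and is written on the gene's own strand. Capitals mark matches on either strand to GGGCGG (the SP/KLF motif), TATAAA (letters of the TATA box), AGATAA (the GATA motif) or TGTGGTT (the RUNX motif). Where matches overlap only the first is marked, so the TATAAA that overlaps TTTATA in Il13 is partly in lower case. Matches are marked wherever they stand in the window, so a TATA match need not be a working TATA box. Nampt, the gene of the drug's target (chr12:32820085-32820384, plus strand), and Il13 (chr11:53634653-53634952, minus strand) carried a peak in all 4 libraries. Fndc1, which encodes a fibronectin domain protein (chr17:7827253-7827552, minus strand), and Mylk3, which encodes the cardiac myosin light chain kinase (chr8:85380992-85381291, minus strand), carried a peak in both Control libraries and in neither FK866 library. Evc, a gene of the primary cilium (chr5:37336832-37337131, minus strand), carried a peak in both FK866 libraries and in neither Control library.
Nampt: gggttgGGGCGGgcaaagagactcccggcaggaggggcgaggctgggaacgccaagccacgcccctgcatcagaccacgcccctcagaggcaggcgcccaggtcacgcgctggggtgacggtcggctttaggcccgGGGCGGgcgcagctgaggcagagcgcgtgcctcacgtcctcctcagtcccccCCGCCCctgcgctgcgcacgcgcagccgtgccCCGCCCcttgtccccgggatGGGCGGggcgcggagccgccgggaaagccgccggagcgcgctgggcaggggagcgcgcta
Il13: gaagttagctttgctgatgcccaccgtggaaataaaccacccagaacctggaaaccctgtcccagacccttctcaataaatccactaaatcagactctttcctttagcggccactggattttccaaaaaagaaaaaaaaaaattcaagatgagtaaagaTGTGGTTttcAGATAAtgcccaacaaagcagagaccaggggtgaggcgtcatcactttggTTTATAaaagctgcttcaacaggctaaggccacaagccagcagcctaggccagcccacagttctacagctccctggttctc
Fndc1: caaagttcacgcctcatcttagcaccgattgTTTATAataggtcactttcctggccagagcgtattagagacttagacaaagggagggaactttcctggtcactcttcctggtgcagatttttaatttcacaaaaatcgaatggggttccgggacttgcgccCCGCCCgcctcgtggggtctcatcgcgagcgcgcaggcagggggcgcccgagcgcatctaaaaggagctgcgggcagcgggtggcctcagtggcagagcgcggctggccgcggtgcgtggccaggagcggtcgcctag
Mylk3: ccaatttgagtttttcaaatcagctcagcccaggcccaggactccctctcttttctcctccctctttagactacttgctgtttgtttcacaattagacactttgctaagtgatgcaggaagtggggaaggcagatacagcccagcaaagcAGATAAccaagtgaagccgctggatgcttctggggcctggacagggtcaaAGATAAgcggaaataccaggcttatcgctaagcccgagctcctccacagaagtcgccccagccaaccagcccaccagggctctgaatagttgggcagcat
Evc: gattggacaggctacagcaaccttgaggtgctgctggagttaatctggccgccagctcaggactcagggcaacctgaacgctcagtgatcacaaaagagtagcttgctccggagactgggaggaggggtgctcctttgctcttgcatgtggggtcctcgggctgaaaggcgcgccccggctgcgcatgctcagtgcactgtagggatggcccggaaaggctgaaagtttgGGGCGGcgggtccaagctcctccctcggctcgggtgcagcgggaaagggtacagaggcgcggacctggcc

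Peaks covered the whole window of Nampt (300 bases in each of the 4 libraries). On the window of Fndc1 they covered 0 bases in both FK866 libraries and all 300 bases in both Control libraries, and on that of Mylk3 they covered 0 bases in both FK866 libraries, against 287 bases in Control 1 and 300 in Control 2. On the window of Evc they covered 281 bases in FK866 1 and 24 in FK866 2, against 0 in both Control libraries. On the window of Il13 they covered 242 and 288 bases in FK866 1 and 2, against 300 and 106 in Control 1 and 2. The window of Evc was thus barely reached in FK866 2, and that of Il13 was covered in part in 3 of the 4 libraries.

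Of 21262 such windows, of 17491 genes, 33 were gained, 61 were lost and 11621 carried a peak in all 4 libraries. The lost and gained start regions were poorer in CpG than those covered throughout, as were the 1046 windows with a peak in some other combination of the libraries. Their median number of CpG dinucleotides was 7 in the gained and 8 in the lost windows, against 8 in windows of other combinations and 22 in those covered in all 4 libraries. The letters CCGGAAG, a match to the ETS motif on either strand, occurred in 0 of 33 gained and 0 of 61 lost windows, against 3.63% of windows of other combinations, 19.3% of windows covered in all 4 and 11.6% of all windows. SP/KLF letters occurred in 17 of 33 gained (51.5%) and 28 of 61 lost windows (45.9%), against 42.1% of windows of other combinations, 69.1% of windows covered in all 4 and 46.2% of all windows. A GATA match stood in 1 gained and 5 lost windows (3.03% and 8.20%), against 9.65% of all windows, a TATA match in 3 gained and 4 lost windows (9.09% and 6.56%), against 12.6%, and a RUNX match in 0 gained and 2 lost windows, against 4.71%. These shares describe letters in the windows and are not counts of occupied sites.

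The 4 peak lists differed in length. FK866 1 held 40320 peaks and FK866 2 held 43468, against 50489 in Control 1 and 41023 in Control 2. The longest list, that of Control 1, also had the smallest share of peaks with a deposited adjusted p under 0.05, 53.9%, against 61.8% to 70.1% in the other 3. Counting only such peaks, the lists were close in length, with 28252 and 26872 peaks in FK866 1 and 2, against 27200 and 28269 in Control 1 and 2. Peaks covered 38.96 and 39.69 Mb in the FK866 libraries, against 43.8 and 39.4 Mb in the Control libraries. The lists hold no read counts, so the sequencing depth behind them is unknown and a missing peak means only that the authors' caller listed none.

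The cell type label was checked against marker genes. All 20 ILC2 transcription factor genes, 25 of 26 ILC2 receptor genes and 14 of 19 ILC2 cytokine genes carried a peak in all 4 libraries, among them Gata3, Rora, Il1rl1 (the IL-33 receptor), Il17rb (a subunit of the IL-25 receptor), Il5, Il13 and Areg. Over all 21883 genes, 65.0% carried a peak in all 4 libraries, so a peak on a marker gene is weak evidence of cell type. Markers of other lymphocytes were mixed. A peak in all 4 libraries lay on 10 of 13 T cell genes, Cd3e, Cd3d and Cd3g among them, on 6 of 12 ILC1 and NK genes, Tbx21 and Eomes among them, and on 6 of 11 ILC3 genes. No library had a peak on Cd8a, Cd8b1, Ncr1, Klrb1c, Ifng, Il17a, Il22 or Il23r. Summed over the T cell list, peaks covered 17.1 and 19.3 kb in the FK866 libraries, against 17.9 and 16.0 kb in the Control libraries. Of 14 epithelial genes, 6 carried a peak in all 4 libraries, Epcam and Cdh1 among them, and 4 had none in any, Krt19, Krt20 and Muc2 among them. Peaks on the epithelial list summed to 6.51 and 7.86 kb in the FK866 libraries, against 13.2 and 8.32 kb in the Control libraries. The myeloid list summed to 8.90 and 7.76 kb with FK866, against 10.1 and 8.11 kb in Control, with a peak in all 4 libraries on 4 of 14 genes, Cd14 and Spi1 among them, and none in any on 4, Adgre1, S100a8 and S100a9 among them. The B cell list summed to 8.81 and 8.46 kb, against 9.38 and 12.5 kb, and the stromal and endothelial list to 11.9 and 10.5 kb, against 15.4 and 10.9 kb. The highest sum of each of the epithelial, myeloid, and stromal and endothelial lists was that of Control 1. In a bulk library, fewer cells of a type and less signal per cell cannot be told apart.

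Most regions were either in every library or in a single library. Of the 76819 regions, 24158 (31.4%) carried a peak in all 4 libraries, 5968 in 3, 10396 in 2 and 36297 (47.25%) in 1. FK866 gained 1423 regions and lost 2050. That is 1.85% of all merged regions gained and 2.67% lost. Pairs of libraries that mixed the treatments shared regions as often. The pair FK866 2 and Control 1 alone shared 2230 regions and the pair FK866 1 and Control 1 shared 1938, while the pairs FK866 1 with Control 2 and FK866 2 with Control 2 shared 1386 and 1369. The 3 pairs that held Control 1, the longest list, were the 3 largest. With the 4 lists cut to equal length, FK866 gained 1509 regions and lost 1518.

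**Figure D1:**
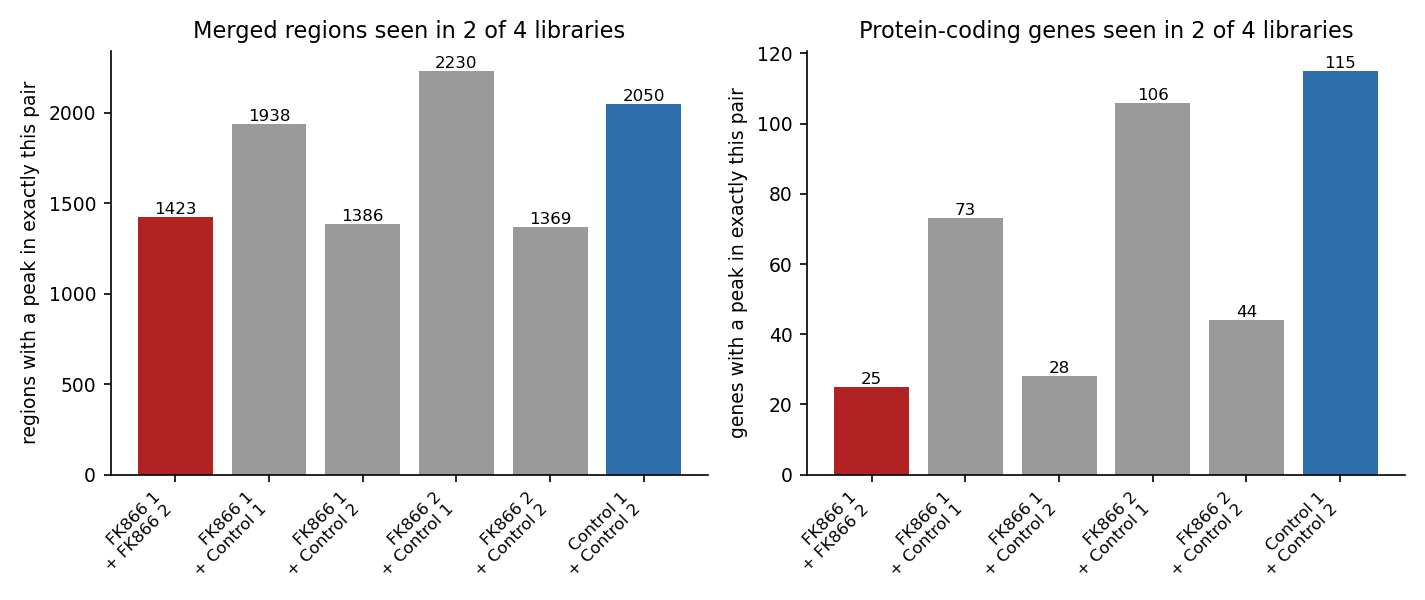
Number of merged regions (left) and protein-coding genes (right) with a peak in exactly the 2 libraries named under each bar and in neither of the others. The bar of both FK866 libraries (red) is 1423 regions and 25 genes, that of both Control libraries (blue) is 2050 regions and 115 genes, and the mixed pairs (grey) run from 1369 to 2230 regions and from 28 to 106 genes.

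For regions, FK866 against Control did not stand out among the ways of pairing the libraries when all peaks were used. The 4 libraries can be put into 2 pairs in 3 ways, so an exact permutation test cannot give a p below 0.333. Lost and gained regions summed to 3473 for FK866 against Control. The other 2 pairings gave 3307 and 3616 (exact permutation test over samples, one-sided p = 0.667). With peaks of a deposited adjusted p under 0.05 only, FK866 against Control had the largest sum, 1325, against 1279 and 1318. That gave p = 0.333 (exact permutation test, one-sided). Under every other setting tried a mixed pairing had the largest sum. The Jaccard index, the length 2 libraries cover in common divided by the length either covers, was 0.613 between the FK866 libraries and 0.585 between the Control libraries. Between an FK866 and a Control library it lay between 0.567, for FK866 2 with Control 1, and 0.634, for FK866 1 with Control 2, which was the highest of all 6 pairs. The mean index within treatments exceeded that between treatments by 0.00014 (exact permutation test over samples, one-sided p = 0.667). The excess was 0.00077 with the 4 lists cut to equal length and 0.00095 with peaks of a deposited adjusted p under 0.05 only. Both were the largest of the 3 pairings (exact permutation test over samples, one-sided p = 0.333, the smallest it can give).

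The regions that distinguished the treatments were weak and narrow. Peak strength was expressed as a percentile, the rank of a peak's deposited -log10 p within its own list. The median percentile was 24.2 for gained and 26.8 for lost regions, close to the 26.3 of regions shared by 1 FK866 and 1 Control library, and below the 71.9 of regions in all 4 libraries. Median widths were 581 bp for gained and 614 bp for lost regions. They were 606 bp for regions shared by 1 FK866 and 1 Control library and 1488 bp for regions in all 4. A deposited adjusted p under 0.05 in both libraries with the peak was reached by 164 gained (11.5%) and 242 lost regions (11.8%), and 13 gained and 48 lost regions had peaks in the upper 50% of both lists. Gained and lost regions lay near a gene end, within 2 kb, in 17.1% and 17.9% of cases, against 14.7% of regions in other combinations of libraries and 52.0% of regions in all 4. They lay inside genes away from the ends in 55.0% and 50.5% of cases, against 54.9% of regions in other combinations and 28.7% of regions in all 4. In position they were thus close to other regions that some libraries lacked.

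**Figure D2:**
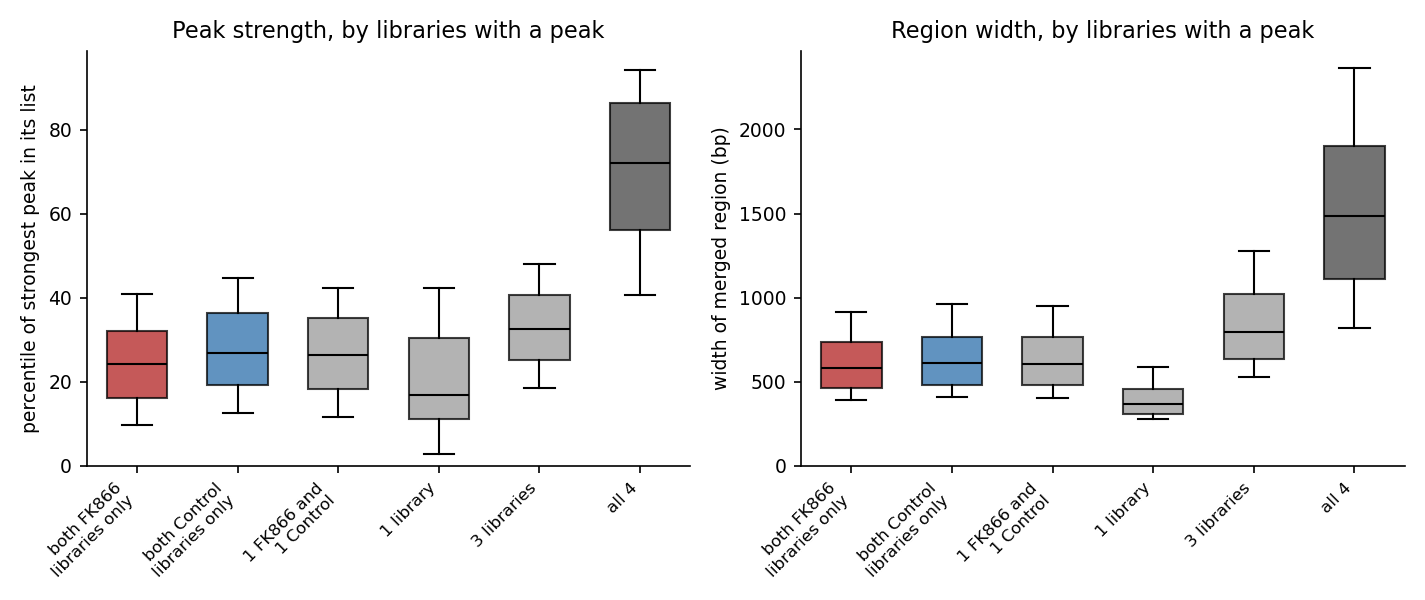
Percentile of a region's strongest peak within its list, averaged over the libraries that have one (left), and width of the merged region in bp (right), by which libraries had a peak. Boxes span the middle 50% of regions with the median as a line, and whiskers reach the 10th and 90th percentiles. Regions of both FK866 libraries only (median percentile 24.2) and of both Control libraries only (26.8) sit with those of 1 FK866 and 1 Control library (26.3), below those of all 4 (71.9).

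The strongest gained and lost regions were short stretches, mostly away from gene ends. Among gained regions the strongest was chr14:104715764-104716066, 193052 bp from Obi1, where peaks covered 275 and 281 bp in the FK866 libraries and none in the Control libraries, at percentiles 63.6 and 65.3. Next came chr7:83927750-83928144 beside Cemip, a hyaluronan-binding protein gene (395 and 384 bp with FK866), and chr2:164456790-164457339 at an end of Sys1, a Golgi trafficking gene (336 and 550 bp with FK866). Both were at 0 in Control 1 and Control 2. The other 2 of the 5 strongest lay nearest to Fbxo8 (321 and 319 bp with FK866) and Zfp791 (296 and 269 bp with FK866), and were at 0 in both Control libraries. Among lost regions the strongest was chr1:85526943-85527236 inside Gm7592, with 0 bp in both FK866 libraries, against 286 and 294 bp in Control 1 and 2, at percentiles 74.1 and 68.3. The region chr4:89264700-89265119 lay 9354 bp from Cdkn2a, the gene of the cell cycle inhibitors p16 and p19ARF, with 0 bp in both FK866 libraries, against 332 and 420 bp. The other 3 of the 5 strongest lay inside Cspg4, the proteoglycan NG2 (400 and 386 bp in Control), near Sfpq, a splicing factor gene (414 and 303 bp), and near Emb, a cell adhesion gene (353 and 282 bp), and were at 0 in both FK866 libraries. All of these 10 regions lay under the median strength of regions found in all 4 libraries, apart from the Control 1 peak inside Gm7592 and the Control 1 peak near Cdkn2a (percentile 73.1).

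The widest gained and lost regions lay inside or beside genes of varied function. A gained region of 1510 bp inside Dnmt1, the maintenance DNA methyltransferase, held 362 and 1179 bp of peaks in FK866 1 and 2, against 0 in both Control libraries (chr9:20925591-20927100). The gained region inside Ergic1, a gene of the compartment between endoplasmic reticulum and Golgi, held 913 and 1011 bp with FK866 (chr17:26579643-26581149). The other 3 of the 5 widest were inside Ilrun (1302 and 508 bp with FK866), inside Nol4l (1309 and 409 bp) and near an end of Fsd1 and Stap2 (296 and 1438 bp), each at 0 in both Control libraries. Apart from that of Ergic1, these 5 were covered unevenly by the FK866 libraries. The lost region beside Tra2b, a splicing factor gene, held 0 bp in both FK866 libraries, against 2186 and 853 bp in Control 1 and 2 (chr16:22239879-22242395). Inside Cry2, a repressor of the circadian clock, the lost region held 929 and 1218 bp in the Control libraries (chr2:92421694-92423370). The other 3 of the 5 widest were inside Map3k8, a kinase gene (1851 and 706 bp in Control), near Bmp8b, a growth factor gene (359 and 1653 bp), and at an end of Plin4, a lipid droplet gene (1230 and 484 bp), each at 0 in both FK866 libraries. In limma fits over 40522 regions, the adjusted p of these regions was 0.205 or above.

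Covered length was tested next, since a peak can widen or shrink without vanishing. With limma on log2(covered bp + 200), 0 of 40522 regions passed an adjusted p of 0.05 (0%), the smallest adjusted p was 0.205, and 4698 (11.6%) had an unadjusted p under 0.05. Of these 4698, 3471 were lost or gained regions, whose difference follows from how they were defined. Among the 24158 regions with a peak in all 4 libraries, 1206 (4.99%) had an unadjusted p under 0.05, with 568 longer and 638 shorter in FK866. Peaks covered 31.95 and 31.66 Mb of these regions in the FK866 libraries, against 32.09 and 32.07 Mb in the Control libraries. The stretches covered throughout thus differed by little in their summed length. The lowest p among them, singled out once the values were known, were a region inside Akna, an AT-hook protein gene (chr4:63400668-63405048, 4329 and 4199 bp with FK866, against 3043 and 3136 bp in Control), and one inside Mlxipl, which encodes the glucose-responsive factor ChREBP (chr5:135132838-135135147, 1274 and 1246 bp with FK866, against 1977 and 1939 bp in Control). For both the groups did not overlap and the limma adjusted p was 0.205.

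Gene by gene, 25 genes were gained and 115 lost, which is 0.16% and 0.737% of the 15598 genes with a peak in any library. Against these stood 14231 genes with a peak in all 4 libraries. Lost and gained genes summed to 140, against 117 and 134 for the other 2 pairings of the libraries. That gave p = 0.333 (exact permutation test over samples, one-sided), the smallest it can give. FK866 against Control also ranked first with equal-length lists, with deposited adjusted p under 0.05, and with at least 200 bp covered. A mixed pairing ranked first with the gene span alone, with 10 kb on both sides, and with the higher-scoring 50% of peaks. The pairs FK866 2 with Control 1 and FK866 1 with Control 1 alone shared 106 and 73 genes. With a library left out, a group is judged by 1 library and the counts were 65 to 134 gained and 182 to 450 lost. With the 4 lists cut to equal length, 41 genes were gained and 84 lost, and with peaks of a deposited adjusted p under 0.05 only, 39 were gained and 75 lost. Lost genes outnumbered gained genes under both settings. Their peaks were weak: the median percentile was 20.8 over gained and 26.7 over lost genes. A lost or gained gene also need not hold a lost or gained region, since its libraries can have peaks at different places: 18 of 25 gained genes held a gained region and 68 of 115 lost genes held a lost region.

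The gained genes with the strongest peaks were of varied function. Cdh20, a cadherin, had 423 and 615 bp covered in FK866 1 and 2, against 0 in both Control libraries. Slc27a6, a fatty acid transport protein, had 373 and 270 bp with FK866, against 0 in both Control libraries. Evc and Evc2, neighbouring genes of the primary cilium, share a single gained region between their starts (391 and 283 bp with FK866, against 0 in both Control libraries), so they count once as evidence. Ttn, the giant sarcomere protein titin, had 690 and 408 bp with FK866, against 0 in Control. Il11ra1, the IL-11 receptor, had 265 and 514 bp, against 0 in Control. Galr1, a galanin receptor, Tomm20l, Dnah12, an axonemal dynein heavy chain, and Upk3b, a uroplakin, had 312 to 760 bp in the FK866 libraries and 0 in both Control libraries. Dnah12 and Upk3b held no gained region, since their peaks in FK866 1 and FK866 2 lay in different regions. These 10 genes had mean percentiles between 25.6 and 45.5.

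The lost genes with the strongest peaks included Tslp and Gpx8. Tslp, the epithelial cytokine that stimulates ILC2s, had 0 bp in both FK866 libraries, against 928 and 543 bp in Control 1 and 2. Gpx8, a peroxidase of the endoplasmic reticulum, had 0 bp in both FK866 libraries, against 554 and 448 bp in Control. Apon, an apolipoprotein, had 0 bp in both FK866 libraries, against 1045 and 854 bp, the longest cover in Control among these 10 genes. Aqp5, a water channel, had 0 bp with FK866, against 502 and 383 bp, and Phldb2, which anchors microtubules at the cell cortex, had 0 bp, against 1000 and 390 bp. Agbl1, C2cd4b, Sntg1, Gm38699 and Gm5709 had 289 to 476 bp in the Control libraries and 0 in both FK866 libraries. Mean percentiles of these 10 genes ran from 48.7 to 57.4, so the Control peaks were of middling strength. No fold change is given for a gene listed at 0 in a group.

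Over all genes, covered length passed the test nowhere. In limma fits of 15039 genes covered in at least 2 libraries, 0 passed an adjusted p of 0.05 (0%). The smallest adjusted p in limma was 0.752. On genes simulated with the spread of these libraries, limma called 10 of 50 changes of log2 1. A gene not called may thus still differ. At an unadjusted p under 0.05 limma had 975 genes (6.48%), 279 longer and 696 shorter in FK866. With quantile normalization of the libraries the same counts were 366 and 516, without Control 1 they were 404 and 449, and without Control 2 they were 248 and 1054. Both FK866 values lay above both Control values for 1963 genes (13.1%) and below them for 3059 (20.3%). The excess of shorter genes was smaller with the lists scaled or with Control 1, the longest, left out. It was also smaller with FK866 1 or FK866 2 left out, and larger with Control 2 left out.

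The 10 genes longer in FK866 with the lowest p were picked among those whose groups did not overlap. Ess2, a nuclear protein associated with splicing, had 2375 and 2207 bp in FK866 1 and 2, against 1162 and 1164 bp in Control 1 and 2. Its log2 difference was 0.87 ± 0.08 (SE, limma, n = 2 each, unadjusted p = 7.2e-04, adjusted p = 0.752). Pgf, the placental growth factor of the VEGF family, had 2755 and 2919 bp, against 1383 and 1095 bp, a log2 difference of 1.08 ± 0.13, the largest of these 10. Kansl3, a subunit of the NSL histone acetyltransferase complex, had 2579 and 2453 bp with FK866, against 1699 and 1665 bp in Control (log2 difference 0.53). Taco1, a translational activator of mitochondrial cytochrome oxidase, had 2097 and 2126 bp with FK866, against 1387 and 1452 bp in Control (log2 difference 0.51). Eef1akmt2, a lysine methyltransferase of an elongation factor, had 1911 and 1842 bp, against 1128 and 1165 bp (log2 difference 0.62). Proca1, Tmem71, Isoc2a, 1500009L16Rik and Rwdd4a completed the 10, with log2 differences of 0.49 to 0.77. None passed the adjusted threshold. When only peaks with a deposited adjusted p under 0.05 were kept, 8 of these 10 differences were smaller by more than 1.5 times. Eef1akmt2 was then at 0.04, Ess2 at 0.43, Kansl3 at 0.27 and Taco1 at -0.02, while Pgf was at 1.10.

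Among those shorter in FK866, picked in the same way, the largest differences were at genes with little cover in the FK866 libraries. Sgk2, a serum- and glucocorticoid-regulated kinase, had 545 and 561 bp in FK866 1 and 2, against 1865 and 2176 bp in Control 1 and 2, a log2 difference of -1.56 ± 0.11 (SE, limma, n = 2 each, unadjusted p = 3.4e-04, adjusted p = 0.752). That was the lowest unadjusted p of all genes. Mylk2, the skeletal muscle myosin light chain kinase, had 277 and 304 bp, against 1748 and 1275 bp (log2 difference -1.79). Dlgap2, a scaffold of the postsynaptic density, had 317 and 303 bp with FK866, against 1502 and 1308 bp in Control (log2 difference -1.65). Inhbc, a subunit of the inhibin family, had 594 and 464 bp with FK866, against 1653 and 1504 bp in Control (log2 difference -1.29). Nptxr, the neuronal pentraxin receptor, was better covered, with 2175 and 2126 bp, against 3893 and 3669 bp (log2 difference -0.76). Fmn2, an actin-nucleating formin, and Flacc1 were listed at 0 in both FK866 libraries, against 1048 and 1157 bp and 1076 and 1220 bp in Control 1 and 2. Gm42323, Mettl24 and Gm33887 had log2 differences of -1.03 to -0.80. With peaks of a deposited adjusted p under 0.05 only, the differences of Gm42323, Dlgap2 and Mylk2, 3 of the 8 genes with cover in both groups, were smaller by more than 1.5 times.

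**Figure D3:**
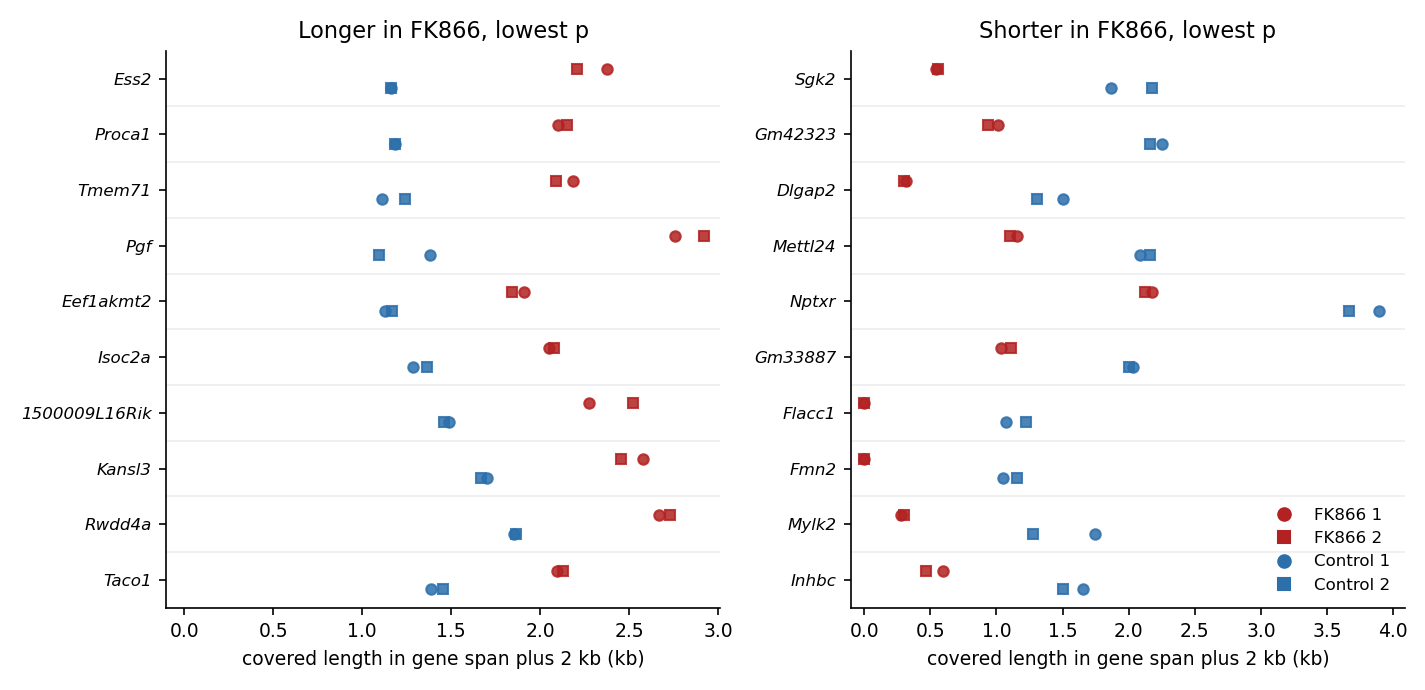
Covered length in kb of the 10 genes with the lowest limma p that were longer (left) and shorter (right) in FK866, with FK866 1 and 2 in red above Control 1 and 2 in blue (circles, replicate 1; squares, replicate 2). The 20 genes were picked among those whose groups do not overlap, and each has a limma adjusted p of 0.752. Fmn2 and Flacc1 are at 0 in both FK866 libraries.

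NAMPT's own gene and the other NAD genes kept their peaks with FK866. Nampt carried 2460 and 3084 bp of peaks in FK866 1 and 2, against 2123 and 2717 bp in Control 1 and 2, and the groups overlapped. Its start region, chr12:32819808-32822192, held 2120 and 2385 bp with FK866, against 2123 and 2120 bp in Control, at percentiles between 86.4 and 88.9 in all 4 libraries. A peak near the gene's far end (chr12:32847812-32848408) was in FK866 1, FK866 2 and Control 2 but not in Control 1. Of 23 genes of NAD synthesis and recycling, 21 carried a peak in all 4 libraries, Kynu and Tdo2 had none in any library, and 0 of 21 tested passed the adjusted threshold.

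By role, the enzymes of the routes into NAD differed in either direction. In the tryptophan route, Haao, which makes quinolinate's precursor, had 2741 and 3014 bp with FK866, against 3892 and 4000 bp in Control (log2 difference -0.43 ± 0.09, SE, limma, n = 2 each, adjusted p = 0.752). Qprt, which turns quinolinate into nicotinic acid mononucleotide, had 2326 and 2454 bp with FK866, against 2039 and 1733 bp in Control. Naprt, the entry of nicotinic acid, had 1283 and 1245 bp, against 1314 and 1290 bp. Nmnat1, the nuclear adenylyltransferase, had 3211 and 2148 bp, against 2108 and 1524 bp, and the groups stood narrowly apart. Nadsyn1, the NAD synthetase, had 2778 and 1775 bp, against 3159 and 3181 bp. Pnp, a phosphorylase that frees nicotinamide from its riboside, was the least variable, with 1870 and 1869 bp, against 1863 and 1869 bp. Over the 21 genes the median log2 difference was 0.00, with 11 positive and 10 negative, beside -0.02 over all genes with cover in both groups. Of these 21, 5 lay above Control without overlap and 5 below it, against backgrounds of 13.1% and 20.3%.

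**Figure D4:**
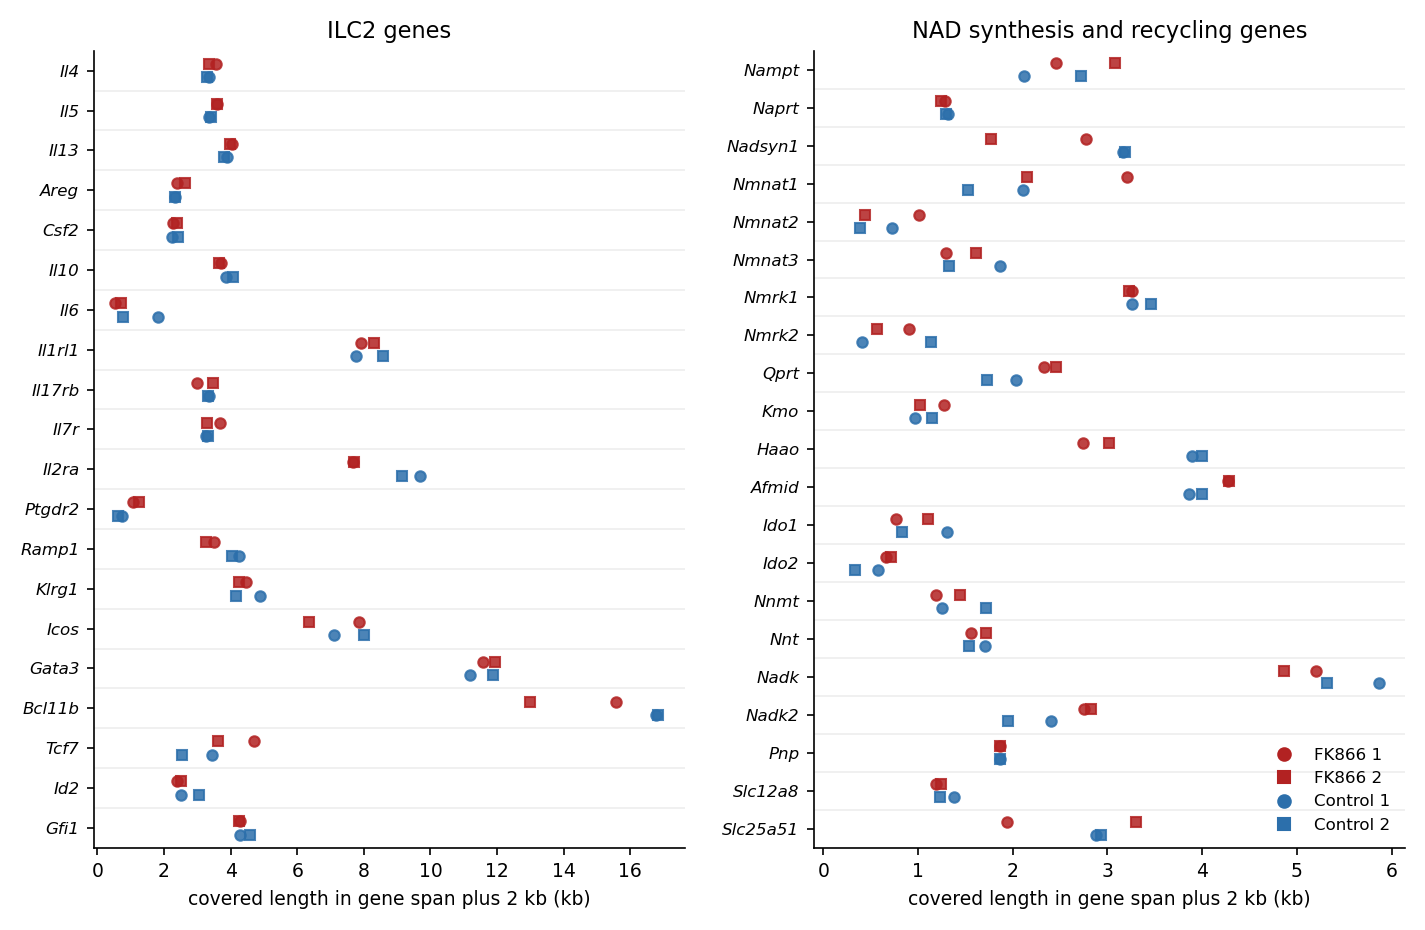
Covered length in kb within each gene span plus 2 kb for 20 ILC2 genes (left) and 21 genes of NAD synthesis and recycling (right), with FK866 1 and 2 in red above Control 1 and 2 in blue (circles, replicate 1; squares, replicate 2). The values of Nampt overlap between the groups. Il2ra and Haao lie lower with FK866, and Ptgdr2 higher, without overlap.

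The effector cytokine genes carried similar cover with and without FK866. Il5 had 3578 and 3581 bp in FK866 1 and 2, against 3347 and 3417 bp in Control 1 and 2. Il13 had 4043 and 3986 bp, against 3906 and 3806 bp, and Il4 had 3553 and 3348 bp, against 3361 and 3296 bp. Areg, the epidermal growth factor family member amphiregulin, had 2393 and 2619 bp, against 2331 and 2343 bp. All of these differ by under 300 bp between any 2 libraries. Csf2, which encodes GM-CSF, had 2265 and 2394 bp with FK866, against 2241 and 2434 bp in Control, and Il10 had 3697 and 3642 bp, against 3874 and 4081 bp. Il6 had the lowest p of the list, with 534 and 700 bp with FK866, against 1813 and 766 bp in Control (log2 difference -0.78 ± 0.42, SE, limma, n = 2 each, adjusted p = 0.912), and its distance rested on Control 1. Of 19 cytokine genes, 0 were gained or lost and 0 of 15 tested had an unadjusted p under 0.05. Ccl1, Ccl3, Ccl4 and Ccl5 had no peak in any library.

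Within these loci the peaks were not identical in layout, and the regions below were chosen with their values already known. At Il13 the main region, chr11:53630948-53634961, held 3489 and 3311 bp with FK866, against 3906 and 3806 bp in Control. A gained region, chr11:53635560-53636490, lay 858 to 1788 bp upstream of the Il13 start, with 554 and 675 bp in FK866 1 and 2, against 0 in both Control libraries. Its peaks stood at percentiles 14.8 and 46.0, and its limma adjusted p was 0.205. The single Il5 region, chr11:53719441-53723073, held the values of the gene given above. Gata3 had 10 regions, 7 of them in all 4 libraries, and a gained region inside the gene, chr2:9862380-9862814, with 435 and 432 bp with FK866, against 0 in both Control libraries, at percentiles 29.7 and 10.96. Bcl11b had 26 regions, 9 of them in a single library. Of the 26, 3 were lost and 0 gained, beside 2.67% and 1.85% of all merged regions. In the strongest of these 3, chr12:107961883-107962437, peaks covered 0 bp in both FK866 libraries, against 503 and 389 bp in Control at percentiles 53.9 and 55.8.

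Of 25 receptor genes tested, 2 lay above Control without overlap and 4 below it, beside 13.1% and 20.3% of all genes. Il2ra, Ramp1 and Ptgdr2 had an unadjusted limma p under 0.05, beside 6.48% of all genes tested. Il2ra, the alpha chain of the IL-2 receptor, had 7680 and 7707 bp in FK866 1 and 2, against 9697 and 9137 bp in Control 1 and 2 (log2 difference -0.28 ± 0.08, SE, limma, n = 2 each, unadjusted p = 0.028, adjusted p = 0.755). None of its 20 regions was lost or gained, and 12 of them were in a single library. Its region chr2:11662159-11664831 held 1595 and 1845 bp with FK866, against 2345 and 1991 bp in Control. Ramp1, the partner chain of the CGRP receptor, had 3493 and 3271 bp with FK866, against 4241 and 4030 bp in Control, a log2 difference of -0.28. Ptgdr2, the prostaglandin D2 receptor CRTH2, had 1076 and 1243 bp with FK866, against 726 and 611 bp in Control (log2 difference 0.65 ± 0.14, SE, limma, n = 2 each, unadjusted p = 0.013, adjusted p = 0.752). The groups were also apart, by smaller log2 differences, for Calcrl, a chain of the CGRP receptor (0.19), Kit, the stem cell factor receptor (-0.10), and Tnfrsf25, the death receptor DR3 (-0.05). Il1rl1 had 7919 and 8297 bp with FK866, against 7775 and 8577 bp in Control, Il17rb had 2997 and 3479 bp, against 3362 and 3326 bp, and Il7r had 3676 and 3281 bp, against 3276 and 3321 bp. For these 3 the groups overlapped. Sucnr1, the succinate receptor, had no peak in any library.

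The transcription factor genes of ILC2s were long and well covered in both groups. Gata3 had 11595 and 11943 bp in FK866 1 and 2, against 11191 and 11895 bp in Control 1 and 2. Rora had 29190 and 24404 bp, against 32313 and 25996 bp. Bcl11b had 15568 and 12988 bp, against 16791 and 16830 bp, and the groups did not overlap. Of the 20 genes, 3 lay above Control without overlap and 5 below it, Bcl11b among them, beside 13.1% and 20.3% of all genes. Tcf7, a factor of early ILC precursors, had the lowest p, with 4708 and 3627 bp with FK866, against 3449 and 2552 bp in Control (log2 difference 0.45 ± 0.21, SE, limma, n = 2 each, adjusted p = 0.883). Id2, Gfi1, Ets1, Irf4 and Maf differed by a log2 of at most 0.16 either way. Of 20 genes, 0 had an unadjusted p under 0.05 and the list's median log2 difference was 0.03.

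Energy metabolism genes were covered in both groups, with members on either side of Control. All 27 TCA cycle genes and all 24 glycolysis genes carried a peak in all 4 libraries, with median log2 differences of -0.03 and -0.01. Sdhaf2, an assembly factor of succinate dehydrogenase, had 2277 and 2540 bp in FK866 1 and 2, against 3165 and 3044 bp in Control 1 and 2 (log2 difference -0.34). Pcx, the pyruvate carboxylase, had 3007 and 3345 bp, against 3771 and 4088 bp (log2 difference -0.29). In glycolysis, Eno1, the enolase, had 4495 and 4288 bp, against 3079 and 3688 bp (log2 difference 0.36), while Pfkfb4, which controls an activator of glycolysis, had 3908 and 3311 bp, against 4875 and 6049 bp (log2 difference -0.57). The 2 glycolysis genes thus lay on opposite sides. Cpt1b, the muscle form of the enzyme that loads fatty acids onto carnitine, had 287 and 0 bp, against 877 and 985 bp, and Ppara, a factor that drives fatty acid oxidation, had 1766 and 1517 bp, against 2073 and 2069 bp. All of these have limma adjusted p of 0.752 or above.

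Genes of NAD use and of chromatin enzymes also gave no adjusted call. Among 25 NAD-consuming enzymes Art2b, a cell surface ADP-ribosyltransferase, had 269 and 307 bp in FK866 1 and 2, against 570 and 771 bp in Control 1 and 2, on weak peaks with a mean percentile of 17.0. In the list of 34 histone methylation and acetylation enzymes, Kmt2c, an enhancer methyltransferase, had the lowest p, with 2981 and 3115 bp, against 3404 and 4005 bp (log2 difference -0.26). Epas1, which encodes HIF-2 alpha, had 4753 and 5366 bp, against 8067 and 5815 bp, and no member of the 15 HIF pathway genes had an unadjusted p under 0.05. The medians of these 3 lists were -0.05, -0.02 and 0.05.

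Signalling and stress genes gave single members on either side. Ikbkb, the kinase that releases NF-kB, had 1918 and 1695 bp in FK866 1 and 2, against 2568 and 2528 bp in Control 1 and 2 (log2 difference -0.46). Jak2 had 7115 and 6730 bp, against 5974 and 6107 bp (log2 difference 0.19), and Nr4a1, an immediate early nuclear receptor, had 4347 and 4280 bp, against 3671 and 3866 bp (log2 difference 0.19). Nfe2l2, which encodes NRF2, had 4988 and 5541 bp with FK866, against 4174 and 4015 bp in Control (log2 difference 0.35), whereas Prdx1, a peroxiredoxin, had 1770 and 1735 bp, against 2447 and 2079 bp. The regulator and this antioxidant gene lay on opposite sides. Bcl2l11, the death factor BIM, had 3018 and 2961 bp, against 3500 and 3405 bp (log2 difference -0.20), and Phgdh, the entry enzyme of serine synthesis in the stress response list, had 1756 and 1667 bp, against 2080 and 1931 bp (log2 difference -0.21). Usp18, an interferon-induced protease, had 2329 and 2460 bp, against 1991 and 1990 bp (log2 difference 0.24). Limma adjusted p ran from 0.752 to 0.822 for these 8 genes. With peaks of a deposited adjusted p under 0.05 only, the signs of Nr4a1 and Bcl2l11 turned, and that of Bcl2l11 turned with lists of equal length too.

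The autophagy and AMPK list had the lowest median among the signalling and metabolic lists. Its median log2 difference was -0.17 over 21 genes, 15 of them negative, beside -0.02 over all genes. Atg7, the enzyme that activates the autophagy conjugation proteins, had 4751 and 4023 bp in FK866 1 and 2, against 7135 and 6454 bp in Control 1 and 2 (log2 difference -0.61 ± 0.12, SE, limma, n = 2 each, unadjusted p = 0.010, adjusted p = 0.752). Rptor, the raptor subunit of mTORC1, had 10085 and 8410 bp with FK866, against 15757 and 10518 bp in Control, and Mtor had 3446 and 3815 bp, against 5727 and 3555 bp. In both the highest value was that of Control 1. Peaks on the list summed to 76.7 and 72.7 kb with FK866, against 93.0 and 78.9 kb in Control, and the median was -0.03 without Control 1, -0.30 without FK866 2, -0.05 with lists of equal length and -0.05 with peaks of a deposited adjusted p under 0.05 only.

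In the checkpoint list 1 of 15 genes with a peak was lost and in the chemokine receptor and egress list 1 of 18. Over all genes with a peak the share was 0.737%. The NRF2 list (1 of 19), the myeloid list (1 of 10) and the epithelial list (1 of 10) also held 1 lost gene each. The remaining lists held none, and lists this short cannot tell such shares apart. Tnfsf4, the OX40 ligand, had 0 bp in both FK866 libraries, against 411 and 295 bp in Control 1 and 2, and S1pr3, a sphingosine phosphate receptor, had 0 bp, against 634 and 382 bp. Cd86, a costimulatory ligand, had 1596 and 1999 bp with FK866, against 2766 and 2493 bp in Control (log2 difference -0.51). Rpl5, a ribosomal protein, had 1884 and 1790 bp, against 1354 and 1383 bp (log2 difference 0.38), and Polr2a, the largest subunit of RNA polymerase II, had 2059 and 2359 bp, against 3518 and 2953 bp (log2 difference -0.51). Differences of this size thus occurred also in lists of housekeeping and ribosomal genes. Top2a, a topoisomerase of dividing cells, had 2618 and 2699 bp, against 3141 and 3288 bp, Mcm4, a replication helicase subunit, had 2593 and 2240 bp, against 1937 and 1887 bp, and Aurkb, a mitotic kinase, had 1637 and 1557 bp, against 1981 and 1883 bp. Ciita, the master regulator of MHC class II genes, had 1566 and 1735 bp, against 2404 and 1793 bp (log2 difference -0.30, of the opposite sign with peaks of a deposited adjusted p under 0.05 only).

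Markers of other cells and developmental genes carried mostly short cover. Foxp3, the regulatory T cell factor, had 1889 and 1772 bp in FK866 1 and 2, against 1300 and 853 bp in Control 1 and 2 (log2 difference 0.69), and Themis, a T cell signalling protein, had 571 and 409 bp, against 1149 and 868 bp (log2 difference -0.81). Prf1, the perforin of killer cells, had 606 and 0 bp, against 598 and 1149 bp, and Ccr6, a chemokine receptor of ILC3s, had 451 and 463 bp, against 884 and 518 bp. Both had the lowest p of their lists. Lyz2, the macrophage lysozyme, had 0 bp in both FK866 libraries, against 272 and 267 bp. Acta2, the smooth muscle actin, had 392 and 361 bp, against 656 and 700 bp (log2 difference -0.61), and Pax3, a developmental regulator, had 1814 and 1822 bp, against 2124 and 2307 bp (log2 difference -0.26). Over the 7 epithelial genes with cover in both groups the median was -0.47, the lowest of all lists, and it was -0.30 without Control 1, -0.84 without Control 2, -0.29 without FK866 2 and -0.04 with peaks of a deposited adjusted p under 0.05 only. The part of other cell types in the results was not tested.

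**Figure D5:**
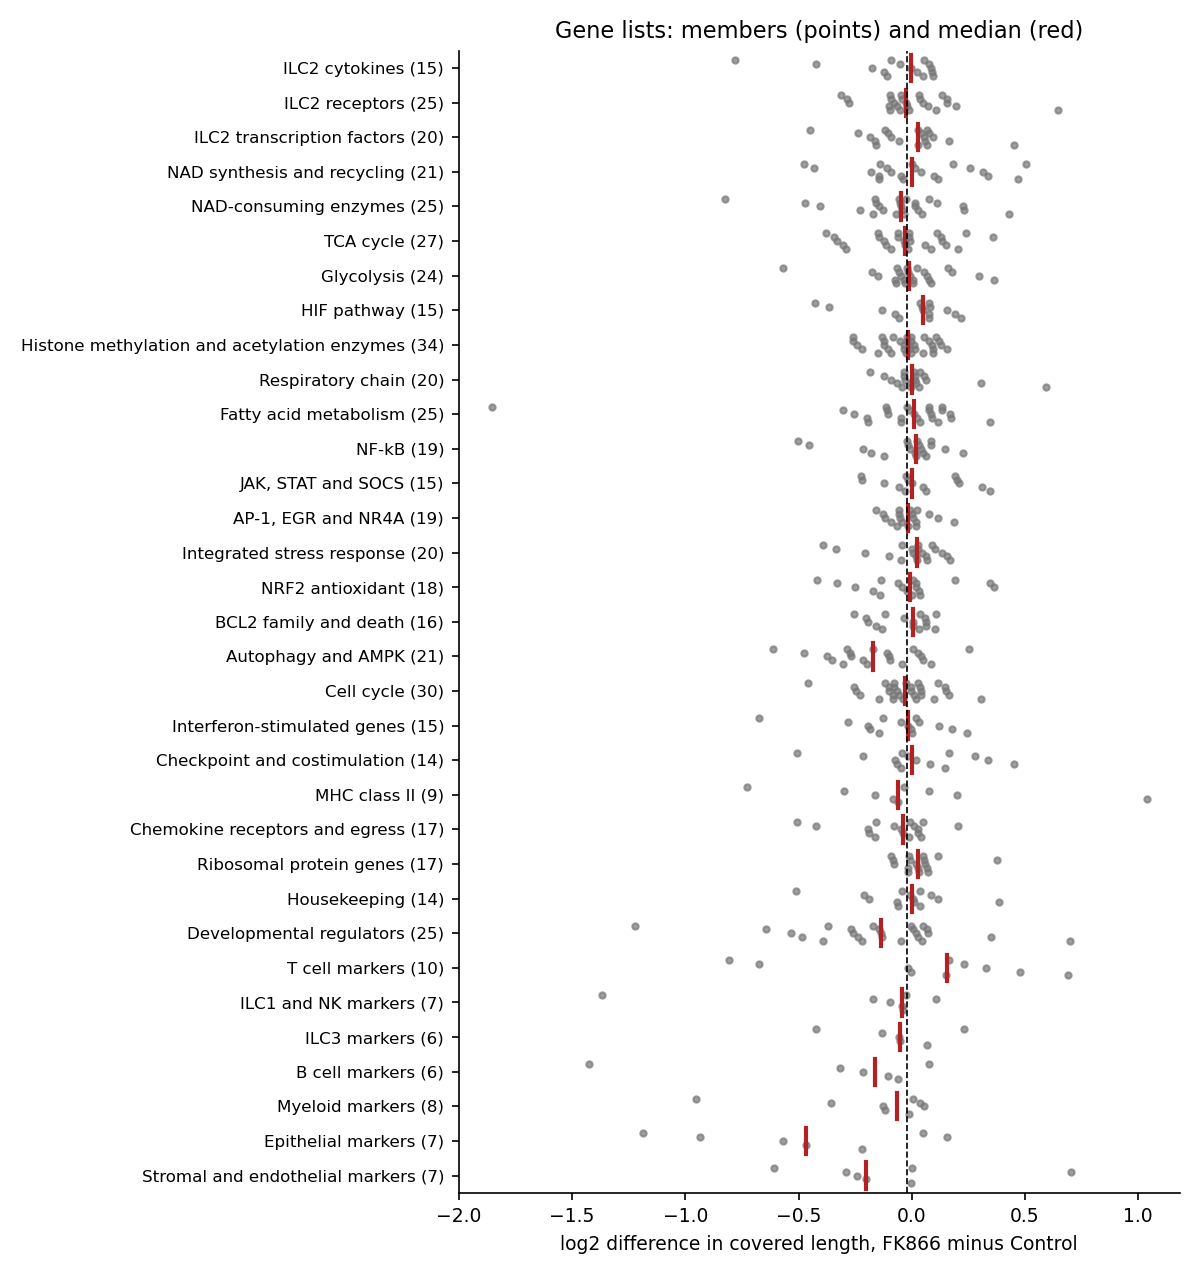
Log2 difference in covered length, FK866 minus Control, for the members of 33 gene lists with cover in both groups (grey points; their number stands after each name), with the list's median as a red bar and the median of all such genes, -0.02, as a dashed line. In 27 lists the median lies within 0.1 of 0, and the epithelial list lies lowest at -0.47.

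Across the 33 lists together, the shares of members at each threshold were close to those of all genes. Of 630 genes on the lists, 570 were tested, 0 passed an adjusted p of 0.05 in limma, and 32 (5.61%) had an unadjusted p under 0.05, beside 6.48% of all genes tested. Of the 570, 70 (12.3%) lay above Control without overlap and 116 (20.4%) below it, beside 13.1% and 20.3% of all genes. Of the 630, 1 was gained and 5 were lost, beside 0.16% and 0.737% of all genes with a peak in any library. The list medians lay between -0.47 and 0.16, and 27 of 33 were within 0.1 of 0.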

How the data were processed

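The 2 FK866 and 2 Control peak lists were compared, using peaks on chromosomes 1 to 19, X and Y. The submitters' processing notes list cutadapt 1.9, Bowtie2 2.5.0 and the build mm10. The sources used here do not name the peak caller or the antibody target. The lists are in narrowPeak layout, with peaks called by the authors for each library separately. The score deposited with each peak is 10 times its -log10 p in over 99% of peaks. The fold enrichment of each peak is the authors' own, as deposited, and describes peaks within a list only. The -log10 p and -log10 q values are the authors', as deposited.

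Peaks of the 4 lists that overlapped by at least 1 bp were merged into regions. Genes were the 21883 protein-coding spans of RefSeq GRCm38.p6, widened by 2 kb on each side. Covered length was tested as log2(covered bp + 200) with limma 3.58.1 in R 4.3.3 (lmFit, eBayes with trend) over features covered in at least 2 libraries, with Benjamini-Hochberg adjustment at 0.05, and log2 differences are on that scale, which understates changes of short cover. The 3 ways of putting the 4 libraries into 2 pairs gave an exact permutation test. Methods were checked on simulated data. On genes simulated with the spread of these libraries, limma called 0 of 50 with a true log2 change of 0.5. It called 10 of 50 at a change of 1, 24 of 50 at 2 and 37 of 50 at 4. False calls numbered 2. Named were the 10 genes with the lowest p in each direction among those whose groups did not overlap. Also named were the 10 lost and 10 gained genes with the strongest peaks, and the corresponding 5 widest and 5 strongest regions. In 33 gene lists, the member with the lowest p and members lost or gained were named. So were those needed to describe the ILC2 and NAD synthesis lists. Other list members with an unadjusted p under 0.05, Rptor, Mtor, and the regions of single loci and of all 4 libraries were added after their values were seen. Some list members are not reported here. Members and lists were chosen with earlier results of these data known. The alternatives were shorter lists, other pseudocounts, filters, scaling, gene margins, a replicate block and each library left out. Tables were handled in Python 3.11.15 with pandas 2.3.3. Start regions were matched to RefSeq windows by symbol, for 17491 genes. The lists carry no read counts, so no counting error could be given.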

Additional observations from a re-analysis of the deposited data

How the results depend on the processing

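With peaks of a deposited adjusted p under 0.05 only, 632 regions were gained and 693 lost (sum 1325), and 39 genes were gained and 75 lost. With the higher-scoring 50% of each list, 151 regions were gained and 507 lost, and 13 genes were gained. With lists of equal length, 1509 regions were gained and 1518 lost, and 41 genes were gained and 84 lost. Fewer peaks enter each of these by construction. At 41 and 39, gained genes with equal-length lists and with the stricter peaks still outnumbered the 25 of the full lists. With 1 library left out, its group is judged by the other library, so counts are larger by construction: 2551 (without Control 2) to 10462 (without FK866 1) regions gained, 3527 (without FK866 2) to 16321 (without Control 2) lost, 65 (without Control 2) to 134 (without Control 1) genes gained, and 182 (without Control 1) to 450 (without Control 2) lost. For these counts, the other alternatives stayed within 1.5 times. The Jaccard difference was larger under both of its alternatives, as given above. In limma, 0 genes and 0 regions passed an adjusted p of 0.05 under any of 11 alternatives, with 810 to 1302 genes and 1599 to 4736 regions at an unadjusted p under 0.05 and smallest adjusted p of 0.530 to 0.872 and 0.083 to 0.934. With a library left out, the lone library of a group is assumed to vary like the other group. With the replicate number as a block, 823 genes had an unadjusted limma p under 0.05 and 0 were called. Deviations of same-numbered libraries correlated at -0.01 for genes and -0.03 for regions. Covered length thus showed no shared deviation of same-numbered libraries. That cannot tell whether they shared an animal, culture or batch. Of 526 values for 48 named genes, 521 kept their direction and 5 reversed, at Taco1 (-0.0155), Nr4a1 (-0.0255), Bcl2l11 (0.0913) and Ciita (0.0364) with peaks of a deposited adjusted p under 0.05, and at Bcl2l11 (0.0159) with lists of equal length; the cause was not tested. Of 363 list medians, 311 moved by less than the spread and 52 by more. Depth is unknown, so a missing peak is not evidence of missing signal.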
